A study of Mus musculus with 11 samples.

Results

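Aminoacyl-tRNA synthetases are the enzymes that load each transfer RNA (tRNA) with its amino acid before the ribosome can use it. The count files were searched for gene symbols of this family, that is, a single amino acid letter followed by "ars" with or without a final 2, together with Eprs, Ears2, Farsa and Farsb. This gave 37 genes of the 32531 in the files, 20 without the final 2 (the cytosolic enzymes) and 17 with it (the mitochondrial enzymes). All 37 passed the filter on low counts, beside 16417 genes that did so in all.

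RNA was measured by TRAP-seq, in which ribosomes tagged with EGFP are pulled down from tissue with antibodies and the RNA they hold is sequenced. The animals were adult mice, and their line, Glt25d2-EGFP/Rpl10a DU9, carries the tag on ribosomal protein Rpl10a under regulatory DNA of Glt25d2 (now Colgalt2), active in pyramidal neurons of cortical layer 5. All groups carried this transgene and were part of an experiment on intravenous self-administration with short access. The immunopurified (IP) libraries came from cocaine self-administration, yoked control and saline self-administration mice (n = 3 libraries each), with 1 unbound library of the cocaine group, made from RNA left after the pull-down, and 1 input library of the saline group. Sex, what the yoked mice received and whether a library is a single mouse or a pool are not given by the labels, and p-values therefore measure only the spread between these libraries, which may be technical. Each group of 3 IP libraries was sequenced on a lane of its own, so lane and treatment cannot be told apart. The input and the unbound library were on further lanes, so lane and fraction cannot be told apart either.

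Cells keep separate sets of synthetases for the cytosol and for the mitochondrion, and most of the mitochondrial enzymes are coded by nuclear genes of their own. Some genes serve both places: Gars and Kars each code for a cytosolic and a mitochondrial form of the glycine and the lysine enzyme, and no mitochondrial counterpart of Qars exists, since mitochondria make glutaminyl-tRNA through an amidotransferase. Synthetases also fall into class I and class II by the fold of their catalytic domain, and several cytosolic ones are held together in the multisynthetase complex. Under amino acid shortage, many cytosolic synthetase genes are known to be transcribed more through the transcription factor Atf4. Neurons make much protein in their cell bodies and dendrites, and inherited defects in several synthetases cause neuropathies and brain disease in people.

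Libraries held 20926712 to 53862653 gene counts, and the 37 genes took 0.260% to 0.654% of them. The lowest count of any of these genes in any library was 53, for Aars2 in the unbound library. The labels name cerebral cortex as the tissue and the extraction text names the striatum: the cortical marker Slc17a7 stood at 312 to 454 CPM (the count scaled to a common library size) in IP libraries, against 1.59 to 6.75 CPM for the striatal marker Adora2a and 16.9 to 26.2 CPM for Drd1. Summed over all 5 striatal markers listed, the level was 121 to 265 CPM, against 862 to 1052 CPM over 4 cortical excitatory markers. The 3 IP libraries numbered 1, which are 1 of each group, stood apart from the 6 numbered 2 and 3. In them the layer 5 gene Fezf2 was at 130 to 154 CPM, against 55.3 to 82.0 CPM in numbers 2 and 3, and the nuclear RNA Malat1 at 99.5 to 234 CPM, against 1566 to 5274 CPM. The saline input, at 61.4 CPM for Fezf2 and 3969 CPM for Malat1, lay within the range of numbers 2 and 3 for both. Whether the pull-down enriched layer 5 RNA in numbers 2 and 3 was not tested. The labels do not say what a number stands for. Results for the treatments are therefore given with and without the libraries numbered 1. The unbound library also differed in counting: 7.34% of its entries were reads over several genes, against 1.56% to 1.91% in the other 10 libraries.

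The promoters of several cytosolic members hold the core letters of the C/EBP-ATF response element, TGATGNAA, through which Atf4 is known to act. Promoters (250 bases before and 50 after the start, RefSeq, GRCm38.p6) were taken from chromosomes other than 18, and both strands were searched. They covered 26 of the 37 genes. The letters occurred in 5 of 12 cytosolic promoters and in 0 of 14 mitochondrial ones, beside 1219 of 27025 genes with a promoter of the same length (4.51%). Matches are shown, 1 for each of the 5 genes, because all were found in cytosolic genes, with 30 bases around each, 5′ to 3′ on the strand of the gene, and capitals mark the matched letters, which read in reverse complement in all but the last. Aars had a match at base 10 of the transcript, Gars 30 and Tars 15 bases before the start, Iars at base 8 and Yars at base 4 of the transcript. A match is a description of these letters and not evidence of binding, and the other 7 cytosolic and 14 mitochondrial promoters only lack them in this window.
Aars, chr8:111033840-111033869 (+): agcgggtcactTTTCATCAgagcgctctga
Gars, chr6:55037960-55037989 (+): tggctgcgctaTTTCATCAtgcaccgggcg
Tars, chr15:11399655-11399684 (−): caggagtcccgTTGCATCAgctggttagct
Iars, chr13:49682126-49682155 (+): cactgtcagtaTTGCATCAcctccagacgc
Yars, chr4:129189895-129189924 (+): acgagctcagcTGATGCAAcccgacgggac

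Set per kilobase of transcript, cytosolic synthetase genes stood well above mitochondrial ones. The median over the 20 cytosolic genes was 23.4 CPM per kb, against 3.59 CPM per kb over the 17 mitochondrial genes, with 5.004 CPM per kb over 14556 tested genes with a known length (each gene taken at its median over the 9 IP libraries). In each single IP library the cytosolic median was 5.74 to 9.14 times the mitochondrial one, and the ratio was 5.13 for the unbound library and 6.66 for the input. In bulk RNA of this kind, fewer cells of a type and less RNA per cell cannot be told apart.

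Nars, the asparagine enzyme, led the cytosolic genes. It stood at 161, 112 and 132 CPM per kb in cocaine IP libraries 1, 2 and 3, at 153, 107 and 105 in yoked IP libraries and at 163, 104 and 110 in saline IP libraries, with 106 in the unbound and 113 in the input library. Gars, the glycine enzyme of both compartments, followed at 79.96, 47.6 and 62.7 CPM per kb in cocaine, 71.9, 46.1 and 42.6 in yoked and 76.1, 46.7 and 44.2 in saline IP libraries, with 33.9 unbound and 48.1 in the input. Its level could not be set apart from that of Hars, the histidine enzyme, which lay at 84.8, 45.8 and 54.0 CPM per kb in cocaine, 65.1, 46.3 and 44.3 in yoked and 68.0, 44.3 and 44.3 in saline IP libraries, with 34.3 unbound and 47.3 in the input. Every library numbered 1 was above every library numbered 2 and 3 for all 3 genes. Kars, the lysine enzyme of both compartments, was in the middle of the cytosolic order with a median of 25.8 CPM per kb (22.8 to 34.1). Vars, the valine enzyme, was lowest at 1.93, 1.38 and 1.95 CPM per kb in cocaine, 1.63, 1.82 and 1.60 in yoked and 1.68, 1.32 and 1.89 in saline IP libraries, with 0.854 unbound and 1.73 in the input. The 12 enzymes outside the multisynthetase complex had a median of 24.7 CPM per kb and the 8 in it (Eprs, Iars, Lars, Mars, Qars, Rars, Kars and Dars) 13.4, and both ranges overlapped.

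**Figure D1:**
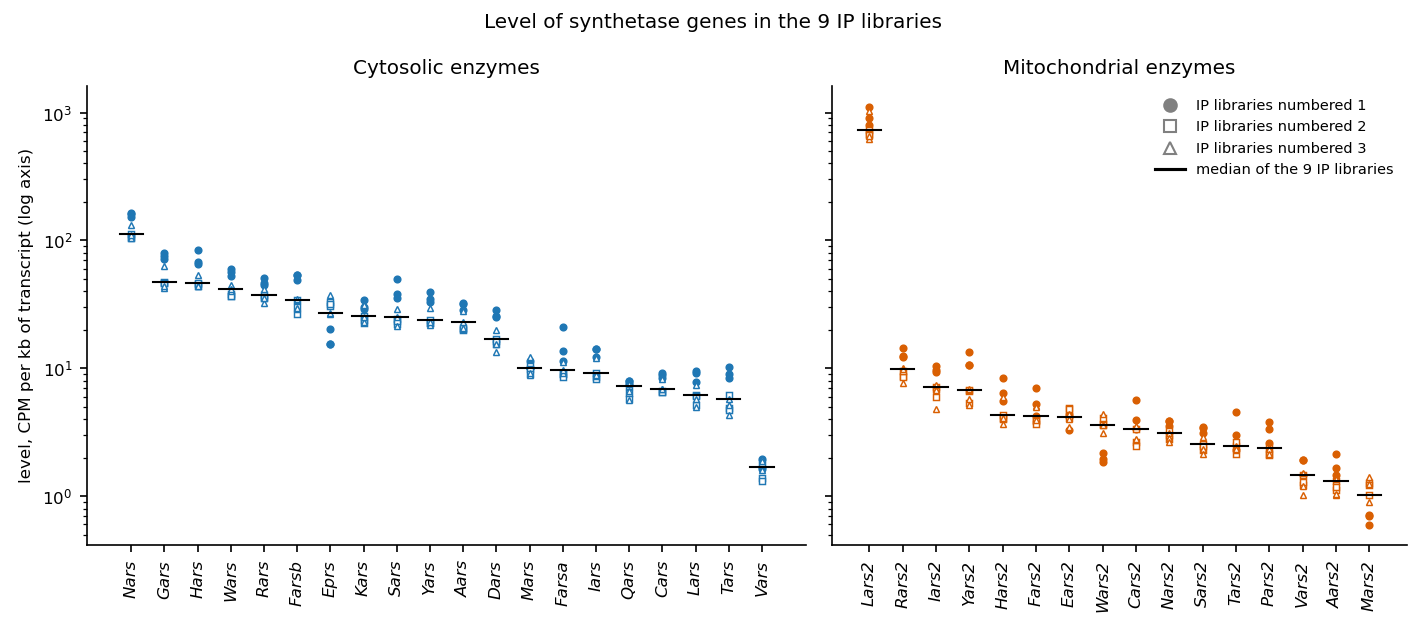
Level of synthetase genes (20 cytosolic, 16 of the mitochondrial) in CPM per kb of transcript (log axis) in the 9 IP libraries, 1 point per library, with the median as a line; filled circles are libraries numbered 1. Most cytosolic genes lie between 5.72 (Tars) and 47.6 (Gars) CPM per kb, and apart from Lars2 the mitochondrial genes shown have medians of 9.86 CPM per kb or less.

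Among mitochondrial genes, Lars2, the leucine enzyme, stood by itself at 624 to 1108 CPM per kb in IP libraries. The next was Rars2, the arginine enzyme, at 14.3, 8.76 and 10.03 CPM per kb in cocaine, 12.3, 8.54 and 7.67 in yoked and 12.4, 9.54 and 9.86 in saline IP libraries, with 8.75 unbound and 8.88 in the input. Iars2, the isoleucine enzyme, lay at 10.4, 6.85 and 6.73 CPM per kb in cocaine, 9.69, 5.93 and 7.40 in yoked and 9.28, 7.18 and 4.78 in saline IP libraries, with 11.7 unbound and 5.40 in the input. Rars2 and Iars2 overlapped between libraries, and 30.5% of the exon length of Iars2 is shared with Rab3gap2 on the opposite strand, so its count is uncertain where strand was ignored. Mars2, the methionine enzyme, was lowest at 0.599, 1.27 and 0.896 CPM per kb in cocaine, 0.712, 1.22 and 1.42 in yoked and 0.693, 1.02 and 1.23 in saline IP libraries, with 0.773 unbound and 1.24 in the input. Its annotated transcript is the longest of the family at 11294 bases, which lowers a level per kb.

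The Lars2 count carried nearly the whole mitochondrial sum. In CPM, Lars2 was at 4316, 2846 and 2430 in cocaine IP libraries, 3134, 2672 and 2571 in yoked, 3558, 2585 and 4002 in saline, 1489 in the unbound and 2941 in the input. It made up 92.7% to 96.0% of the mitochondrial sum in IP libraries and 88.7% in the unbound library. The mouse Lars2 gene has a stretch that resembles ribosomal RNA, and the ribosomal RNA precursor Rn45s stood at 40637 to 81195 CPM in the same IP libraries and 38268 CPM in the unbound one. Lars2 was 4.72% to 6.33% of Rn45s in IP libraries, 3.89% in the unbound library and 5.33% in the input; the part of such reads in the Lars2 count was not tested. The summed cytosolic level was 0.334 to 0.655 times the mitochondrial sum in IP libraries with Lars2 and 7.09 to 9.03 times without it. The order of the 2 classes by summed level therefore turned on this gene, whereas without Lars2 the mitochondrial median per kb was 3.46.

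Apart from Lars and Lars2, enzymes for the same amino acid differed most for asparagine and least for valine. As a log2 ratio of levels per kb, the cytosolic gene over its mitochondrial partner had a median over IP libraries of 5.36 for Nars over Nars2, 4.11 for Aars over Aars2, 3.55 for Wars over Wars2, 3.44 for Hars over Hars2, 3.31 for Sars over Sars2 and 3.15 for Mars over Mars2. Eprs, a fused enzyme for glutamate and proline, was at 3.67 over Pars2 and 2.65 over Ears2. Of the genes for the subunits of the cytosolic phenylalanine enzyme, Farsb was at 2.94 and Farsa at 1.20 over Fars2. Lower values were found for Rars over Rars2 (1.898), Yars over Yars2 (1.85), Cars over Cars2 (1.29), Tars over Tars2 (1.20), Iars over Iars2 (0.52) and Vars over Vars2 (0.15, range −0.20 to 0.89). Only Lars over Lars2 was on the mitochondrial side in all IP libraries, at −6.90. Hars and Hars2 lie head to head on chromosome 18 (36766528 to 36783205 on the minus strand and 36783008 to 36792562 on the plus strand, GENCODE M21, GRCm38) and share exon sequence over 9.8% and 5.8% of their lengths.

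The widest differences among IP libraries followed the library number. Most synthetase genes were higher in libraries numbered 1 than in those numbered 2 and 3, in both compartments, and 3 were lower. In edgeR's quasi-likelihood test over all genes, with Benjamini-Hochberg adjusted p under 0.05, 16 of 20 cytosolic and 13 of 17 mitochondrial genes were higher, beside 27.6% of the 16417 genes tested. The 3 lower genes were Eprs, Mars2 and Wars2, beside 27.7% of all genes. The median log2 fold change was 0.55 for cytosolic, 0.48 for mitochondrial and 0.01 for all genes. Counted without a fit, 15 cytosolic and 8 mitochondrial genes had all libraries numbered 1 above all numbered 2 and 3 (21.1% of all genes), and Eprs, Mars2 and Wars2 had all of them below (24.7% of all genes).

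**Figure D2:**
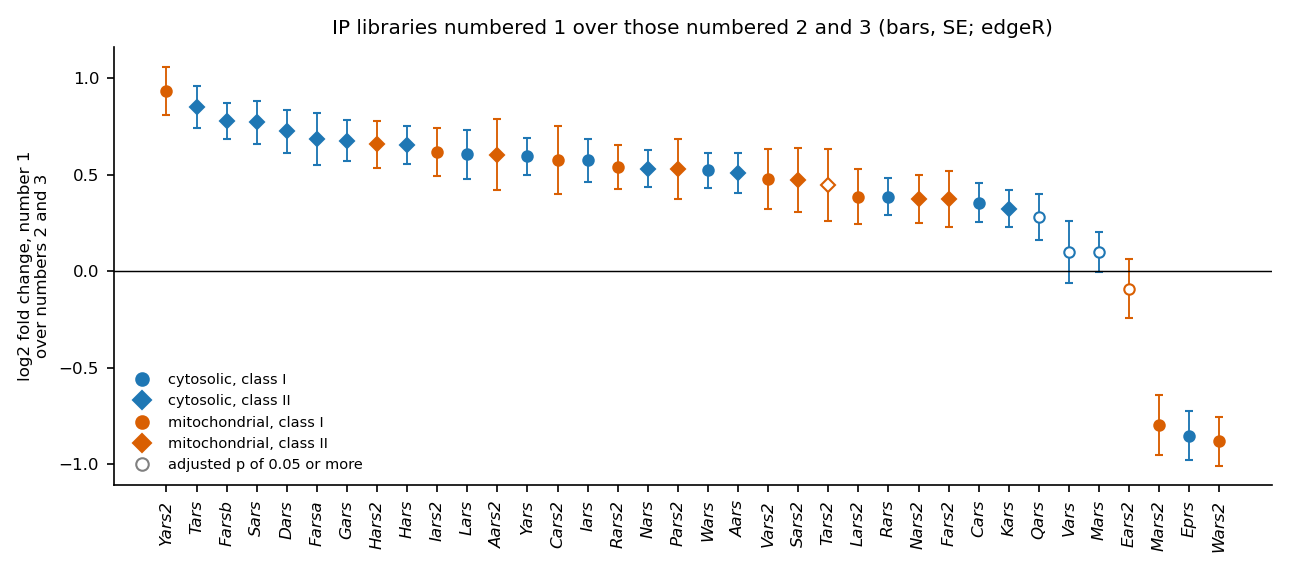
Log2 fold change of 36 synthetase genes in IP libraries numbered 1 over those numbered 2 and 3, with its standard error (3 against 6 libraries, group as a term); open symbols did not pass an adjusted p of 0.05. From Yars2 at 0.93 to Kars at 0.33 the genes run without a gap, while Mars2, Eprs and Wars2 lie between −0.80 and −0.88.

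Yars2, the mitochondrial tyrosine enzyme, had the largest rise. It stood at 21.1, 16.6 and 16.7 CPM in number 1 of cocaine, yoked and saline, against 8.05, 9.75 and 10.9 CPM as lowest, median and highest of numbers 2 and 3 (log2 fold change 0.93, SE 0.13, edgeR adjusted p = 2.45e-05). Tars, the cytosolic threonine enzyme, was at 35.8, 33.7 and 40.9 CPM in number 1, against 17.1, 20.1 and 24.8 CPM (0.85, SE 0.11, edgeR adjusted p = 1.52e-05). Neither gene overlapped between the sets of libraries. Farsb, the beta subunit of the cytosolic phenylalanine enzyme, was at 109, 99.1 and 109 CPM in number 1, against 54.2, 61.0 and 71.0 CPM (0.78, SE 0.09, edgeR adjusted p = 8.64e-06). Its sets again lay apart in every library, and Farsb shares 11.3% of its exon length with Sgpp2 on the opposite strand.

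Wars2, the mitochondrial tryptophan enzyme, fell most. It was at 8.14, 9.68 and 8.63 CPM in number 1 of cocaine, yoked and saline, against 13.8, 16.0 and 19.2 CPM as lowest, median and highest of numbers 2 and 3 (−0.88, SE 0.13, edgeR adjusted p = 4.08e-05). Eprs was at 76.6, 99.0 and 75.8 CPM in number 1, against 131, 154 and 182 CPM (−0.85, SE 0.13, edgeR adjusted p = 6.59e-05). Mars2 was at 6.76, 8.04 and 7.83 CPM in number 1, against 10.1, 13.9 and 16.0 CPM (−0.80, SE 0.15, edgeR adjusted p = 0.000508). The partners Wars (0.52) and Mars (0.10) did not share this fall: Wars over Wars2 was 1.40 and Mars over Mars2 0.89 higher on the log2 scale in number 1, while Eprs over Pars2 was −1.38 and Eprs over Ears2 −0.75, each with no overlap between the sets. Each of these pairs holds a gene picked for its fall in the same comparison. Yars over Yars2 changed by −0.34, also with no overlap, and the other pairs named above overlapped. Kars was the smallest of the passing rises, at 68.4, 60.9 and 58.8 CPM in number 1, against 45.7, 49.3 and 63.0 CPM (0.33, SE 0.10, edgeR adjusted p = 0.0107), and its sets overlapped.

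Class II enzymes rose almost throughout, and the falls were all in genes counted as class I. Eprs, 1 of these, was counted by its glutamate part alone, while its proline part is of class II. Of the 18 class II genes 17 were higher and 0 lower, with a median log2 fold change of 0.63, and of the 19 class I genes 12 were higher and 3 lower, with a median of 0.39. Among cytosolic genes, 11 of the 12 outside the multisynthetase complex were higher (median 0.63), and 5 of the 8 in it were higher and 1, Eprs, was lower (median 0.36). Of all genes tested, 27.6% were higher and 27.7% lower. The members not named so far that rose were Sars, Dars, Farsa, Gars, Hars, Lars, Yars, Iars, Nars, Wars, Aars, Rars and Cars among cytosolic genes (0.36 to 0.77) and Hars2, Iars2, Aars2, Cars2, Rars2, Pars2, Vars2, Sars2, Lars2, Nars2 and Fars2 among mitochondrial ones (0.37 to 0.66). Tars2 (0.45, edgeR adjusted p = 0.0544), Qars (0.28, 0.0597 by the same test), Vars (0.10, 0.623), Mars (0.10, 0.438) and Ears2 (−0.09, 0.64) did not pass. No test compares the classes, since the genes were chosen with these data known.

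Several other measures moved with the library number. The counts of markers below stand beside 27.6% of all genes tested that were higher in number 1 and 27.7% that were lower. All 6 layer 5 markers were higher in number 1 (summed level 836 to 1001 CPM, against 463 to 605 CPM in numbers 2 and 3), 5 of 6 astrocyte markers were lower (483 to 956 against 1798 to 2467 CPM), 4 of 5 oligodendrocyte markers were lower (398 to 487 against 1045 to 1377 CPM), and all 3 nuclear noncoding RNAs were lower. Endothelial markers were higher in 3 of 5 (7.79 to 11.2 against 3.65 to 8.10 CPM) and interneuron markers lower in 4 of 5 and higher in 1 (475 to 610 against 689 to 910 CPM). Microglial markers were lower in 4 of 5 (6.66 to 10.7 against 15.1 to 27.7 CPM) and striatal ones in 3 of 5 (121 to 172 against 228 to 265 CPM). Of the 4 general cortical excitatory markers 1 was higher and 1 lower. The saline input stood at 494 CPM for layer 5, 2032 CPM for astrocyte and 1215 CPM for oligodendrocyte markers, within the ranges of numbers 2 and 3. No marker of these lists was at 0 in any library. Transcript length also moved with it: the Spearman correlation of length with the log2 fold change was −0.42 across 14556 genes and −0.24 across the 37 members, a description across genes of the same libraries. Of the 9 members with transcripts of at least 4000 bases, 5 were higher and 3 lower, and of the 28 shorter ones 24 were higher and 0 lower. The shares of all genes given above are for genes of any length. With the length trend of all genes removed, Mars2 was at 0.02, Eprs at −0.53 and Wars2 at −0.63, with medians of 0.58 for cytosolic, 0.48 for mitochondrial and 0.17 for all genes. The part of cell types in the number difference was not tested.

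Calls rested on single libraries for some of the mitochondrial genes. Without cocaine replicate 1, 8 mitochondrial genes were higher in place of 13, and Aars2 (0.38, edgeR adjusted p = 0.135), Cars2 (0.28, 0.187 by the same test), Fars2 (0.21, 0.277), Lars2 (0.20, 0.222) and Pars2 (0.44, 0.0518) were lost. Over all genes, 4023 of 16801 were higher without that library, in place of 4533 of 16417. Without saline replicate 1, 9 mitochondrial genes were higher, beside 3872 of 16832 genes. Among cytosolic genes 15 to 17 were higher in each fit with 1 library left out, beside 3872 to 4370 of all genes. The 3 lower genes were lower in all of these fits, beside 3965 to 4482 of all genes. The effect of number 1 did not pass a test of its difference between groups in any member (lowest edgeR adjusted p = 0.148 for cocaine minus saline, 0.0927 for cocaine minus yoked and 0.9998 for yoked minus saline), beside 0.524%, 3.19% and 0% of all genes. At an unadjusted p under 0.05 there were 4 members for cocaine minus saline, 5 for cocaine minus yoked and 0 for yoked minus saline, beside 16.3%, 19.4% and 3.92% of all genes. Number 1 is a single library in each group, so these tests take its spread from numbers 2 and 3.

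**Figure D3:**
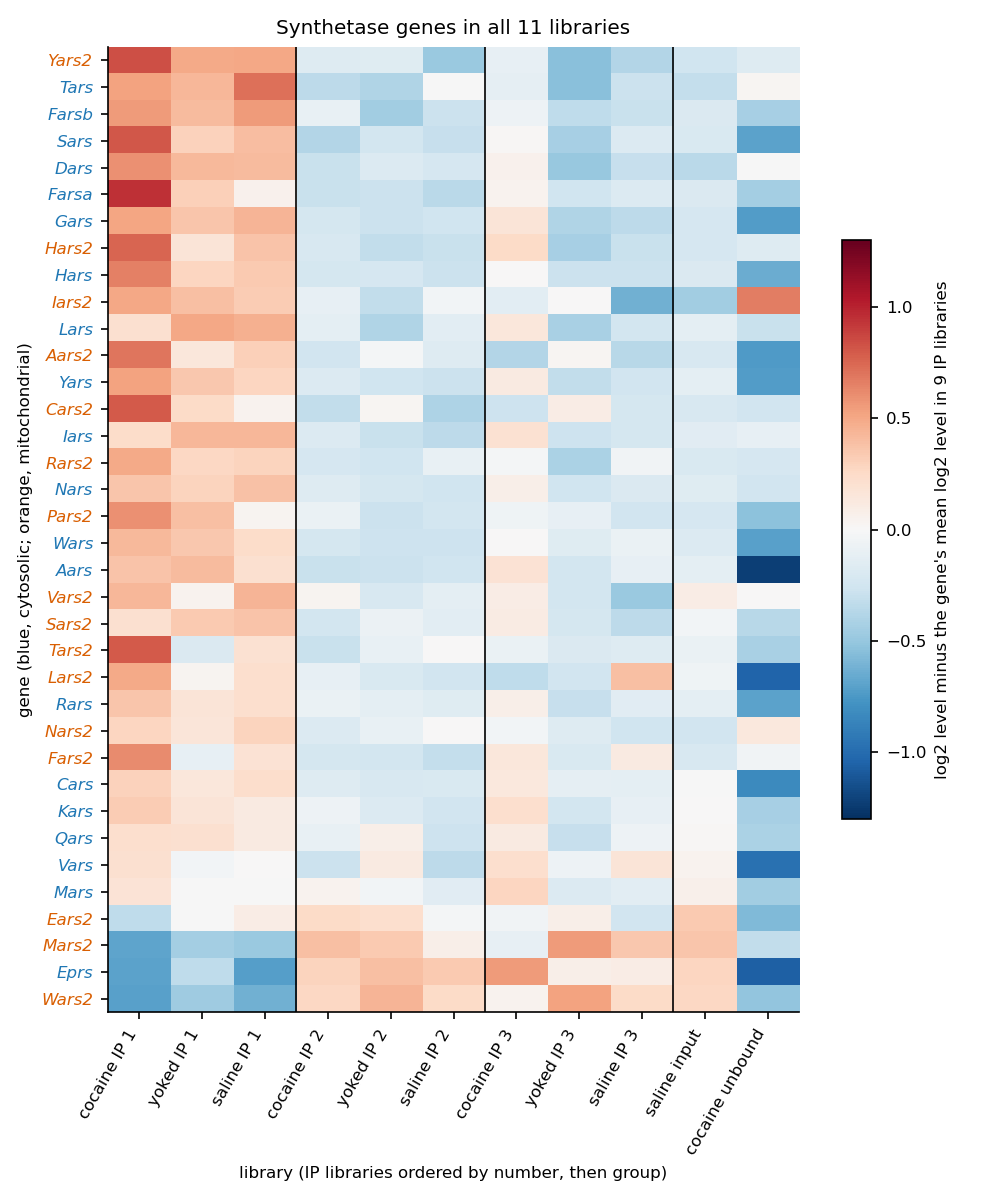
Log2 level of 36 synthetase genes in each of the 11 libraries minus its mean log2 level in the 9 IP libraries; rows run from Yars2, the gene with the largest fold change for number 1, to Wars2, and gene names are blue for cytosolic and orange for mitochondrial enzymes. The 3 left columns, numbered 1, are red for most genes and blue for Mars2, Eprs and Wars2, and the unbound column is blue for most genes, with Aars falling furthest.

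No synthetase gene differed between the treatments beyond the spread between libraries. In each of cocaine over saline, yoked over saline and cocaine over yoked, 0 of 37 genes passed an adjusted p of 0.05 in edgeR, and neither did any of the 16417 genes (0%). At an unadjusted p under 0.05 there were also 0 of 37 in each, beside 1.02%, 0.402% and 1.11% of all genes, and DESeq2's Wald test at an adjusted p under 0.05 gave 0 of 37 in all 3 comparisons. These comparisons share their libraries in pairs.

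The medians were slightly above 0 in cocaine mice for both classes. For cocaine over saline the fitted log2 fold change had a median of 0.17 over cytosolic genes, of which 19 of 20 were above 0, and 0.19 over mitochondrial genes (14 of 17), beside 0.03 over all genes, of which 53.4% were above 0. For cocaine over yoked the medians were 0.19 over cytosolic genes (20 of 20 above 0), 0.16 over mitochondrial genes (14 of 17) and 0.01 over all genes (51.5% above 0). For yoked over saline they were 0.00 over cytosolic (11 of 20), 0.05 over mitochondrial (10 of 17) and 0.00 over all genes (50.9% above 0). Compared within each library number, cytosolic medians for cocaine over saline were 0.15, 0.05 and 0.27 in numbers 1, 2 and 3, and for cocaine over yoked 0.15, 0.04 and 0.42. For yoked over saline the within-number values were 0.00, 0.04 and −0.08.

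The cytosolic medians were near 0 without cocaine replicate 1, but not without all libraries numbered 1. Leaving out cocaine replicate 1 gave 0.012 for cocaine over saline and −0.0052 for cocaine over yoked, and leaving out all 3 libraries numbered 1 gave 0.18 and 0.21. The first of these sets numbers 2 and 3 against numbers 1 to 3, and with number as a block over all libraries the cytosolic medians were 0.16 and 0.20. The mitochondrial medians were −0.055 and −0.084 without cocaine replicate 1, and 0.056 and 0.025 without all libraries numbered 1. Within each library number, 12 of 20 cytosolic and 5 of 17 mitochondrial genes were above 0 in all 3 numbers for cocaine over saline, beside 17.8% of all genes. With the library number as a block, 7 members had an unadjusted p under 0.05 for cocaine over saline, all higher (among them Farsa, Hars2, Kars, Mars, Yars and Yars2), beside 12.3% of all genes, 4 for cocaine over yoked, all higher (Fars2, Farsb, Hars2 and Kars), beside 18.3%, and 1 for yoked over saline, Tars, which was lower, beside 3% of all genes. None passed after adjustment over all genes (lowest edgeR adjusted p = 0.142, for Hars2 in cocaine over yoked). Malat1 was at 99.5, 4074 and 1566 CPM in cocaine IP libraries 1, 2 and 3, at 234, 4242 and 5274 CPM in yoked and at 215, 3558 and 4346 CPM in saline IP libraries, and the part of this difference in the cocaine medians was not tested.

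**Figure D4:**
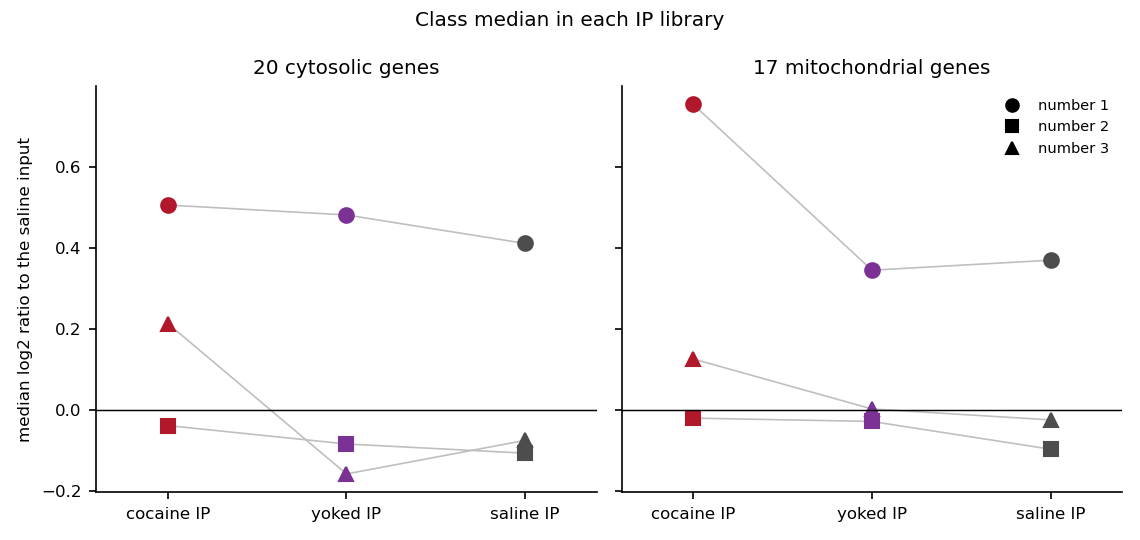
Median over the 20 cytosolic genes (left panel) and the 17 mitochondrial genes (right panel) of the log2 ratio of each IP library to the saline input; symbols give the library number and grey lines join equal numbers. Number 1 lies at 0.41 to 0.51 for cytosolic genes in all 3 groups, and cocaine replicate 3 at 0.21 is the next highest.

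The genes with the largest fold changes had overlapping groups. Farsa, the alpha subunit of the cytosolic phenylalanine enzyme, was at 38.7, 16.4 and 20.6 CPM in cocaine, against 20.8, 15.6 and 17.7 CPM in saline IP libraries (log2 fold change 0.50, SE 0.33, unadjusted p = 0.164 in edgeR). Cars2, the mitochondrial cysteine enzyme, was at 10.8, 5.01 and 5.18 CPM in cocaine and at 7.44, 6.35 and 6.70 CPM in yoked, against 6.43, 4.73 and 5.35 CPM in saline IP libraries (0.37, SE 0.32, for cocaine over saline and 0.32, SE 0.32, for yoked over saline). Hars2, the mitochondrial histidine enzyme, was at 27.9, 14.3 and 19.7 CPM in cocaine, against 21.4, 13.5 and 13.6 CPM in saline IP libraries (0.37, SE 0.31, unadjusted p = 0.257 in edgeR). In each of these genes the highest cocaine library was replicate 1. Without it, Cars2 in cocaine over saline was at −0.11, Farsa at 0.034 and Hars2 at 0.075, in fits that keep saline replicate 1 and so set unequal library numbers against each other. With number as a block, which compares like numbers, the values were 0.31 for Cars2, 0.42 for Farsa and 0.36 for Hars2. Within numbers 1, 2 and 3 the log2 ratio of cocaine to saline was 0.88, 0.063 and 0.21 for Farsa and 0.38, 0.078 and 0.52 for Hars2. Tars was at 33.7, 19.0 and 17.1 CPM in yoked, against 40.9, 24.8 and 20.5 CPM in saline IP libraries (−0.30, SE 0.37). It was at 0.052 without saline replicate 1, again with unequal numbers, and at −0.28, −0.38 and −0.25 within numbers 1, 2 and 3. Lars2 gave −0.27 (SE 0.26) for yoked over saline, with the levels given above. In the fit without the block, the lowest unadjusted p of any member was that of Mars, the cytosolic methionine enzyme, which was picked out after its values were seen (log2 fold change 0.28 for cocaine over saline, SE 0.14, unadjusted p = 0.0812 in edgeR). It was at 33.3, 30.5 and 35.8 CPM in cocaine and at 29.4, 28.8 and 26.2 CPM in yoked, against 29.4, 26.6 and 26.9 CPM in saline IP libraries. The cocaine libraries lay above the others, and the difference did not pass the test. How many of all genes lie apart in this way was not counted.

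In cocaine IP libraries, cytosolic synthetase genes had mean levels above that of the cocaine unbound library. The unbound library has no replicate, so the ratios are given for each IP library, and a gene was counted where all 3 IP libraries were all at least 2-fold higher, or all at least 2-fold lower. By that count 0 of 37 members were higher, beside 0.399% of 13527 genes, and 0 were lower, beside 2.21%. The mean log2 ratio had a median of 0.75 over cytosolic genes (20 of 20 above 0), 0.40 over mitochondrial genes (15 of 17) and 0.05 over all genes. The cytosolic medians of the single libraries were 1.06, 0.41 and 0.69 in replicates 1, 2 and 3, and the mitochondrial ones 0.75, 0.13 and 0.34. Of the cytosolic genes 17 had all 3 IP libraries above the unbound one, and of the mitochondrial genes 10 had, beside 31.8% of all genes.

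Aars, the cytosolic alanine enzyme, and Eprs had the highest ratios. The log2 ratio of Aars was 1.64, 0.95 and 1.43 in cocaine replicates 1, 2 and 3 (mean 1.34, SD 0.35, n = 3), from 183, 115 and 161 CPM in IP libraries against 60.4 CPM in the unbound library. That of Eprs was 0.40, 1.36 and 1.62 (mean 1.13, SD 0.64, n = 3), from 76.6, 152 and 182 CPM against 59.7 CPM. Replicate 1 was thus the highest library for Aars and the lowest for Eprs. The lowest ratios were those of Iars2, at −0.12, −0.76 and −0.78 (mean −0.55, SD 0.37), and Nars2, the mitochondrial asparagine enzyme, at 0.18, −0.30 and −0.15 (mean −0.09, SD 0.24). Aars shares 23.1% of its exon length with Exosc6 on the same strand and Iars2 shares 30.5% with Rab3gap2, and reads over several genes were more frequent in the unbound library, so these ratios are uncertain. Without cocaine replicate 1 the count of members at least 2-fold higher became 1 (Eprs), beside 168 of 13644 genes. Without replicate 2 it became 3 (Aars, Cars and Vars), beside 239 of 13483 genes. Without replicate 3 it became 2 (Aars and Lars2). Over all genes the count also rose in each case, from 54 of 13527, fewer libraries then having to pass. edgeR over all 11 libraries, with the spread estimated from the replicated IP groups, gave 0 members (lowest adjusted p = 0.288), beside 0.0553% of 18070 genes (2 higher and 8 lower). At an unadjusted p under 0.05 it gave 7 of 37 members, beside 10.3% of all genes. The unbound library is there assumed to vary like the IP groups.

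**Figure D5:**
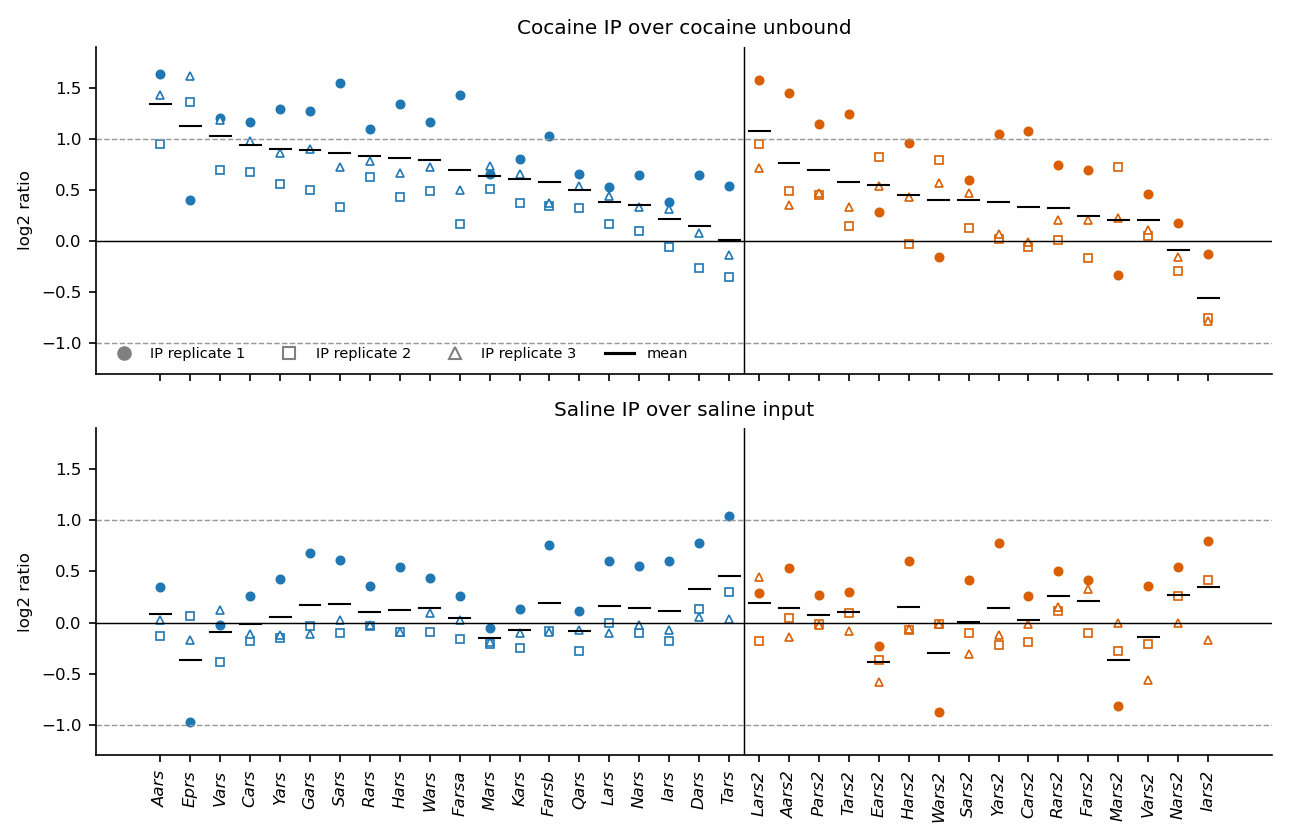
Log2 ratio of each IP library to the cocaine unbound library (upper panel) and to the saline input (lower panel) for the 20 cytosolic genes (left, blue) and 16 of the mitochondrial genes (right, orange); short lines are means and dashed lines mark a 2-fold difference. In the upper panel cytosolic means run from 1.34 (Aars) to 0.02 (Tars), and in the lower panel they run from 0.46 (Tars) to −0.36 (Eprs).

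Over the saline input, the class medians were above 0 in saline IP replicate 1 and below 0 in replicates 2 and 3. The cytosolic median log2 ratio was 0.43, −0.10 and −0.07 in saline replicates 1, 2 and 3, and the mitochondrial median 0.41, −0.10 and −0.02. The medians of the mean ratios were 0.11 for cytosolic, 0.15 for mitochondrial and 0.00 for all genes. By the count of all 3 libraries, 0 of 37 members were at least 2-fold higher, beside 0.0742% of 13478 genes, and 0 were lower, beside 0.0445%. edgeR over all 11 libraries gave 0 members at an adjusted p under 0.05, beside 0% of 18070 genes, and 0 of 37 at an unadjusted p under 0.05, beside 0.587% of all genes.

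Tars and Iars2 stood highest over the input. The log2 ratio of Tars was 1.04, 0.30 and 0.03 in saline replicates 1, 2 and 3 (mean 0.46, SD 0.52, n = 3) and that of Iars2 was 0.80, 0.41 and −0.17 (mean 0.35, SD 0.49, n = 3). The lowest were Ears2, the mitochondrial glutamate enzyme, at −0.23, −0.36 and −0.58 (mean −0.39, SD 0.18, n = 3), and Mars2 at −0.82, −0.28 and 0.00 (mean −0.37, SD 0.42, n = 3). Ears2 was below the input in all 3 libraries, with 9.05, 8.31 and 7.15 CPM in saline IP libraries against 10.7 CPM in the input. In cocaine IP libraries the same gene was above the unbound library in all 3, at 0.28, 0.83 and 0.54, with 5.70 CPM in the unbound library.

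Other genes of the pathway also differed between library numbers, beside the 27.6% of all genes that were higher and 27.7% that were lower. Of the scaffold genes of the multisynthetase complex (Aimp1, Aimp2 and Eef1e1), 1 of 3 was higher in number 1, Eef1e1 (log2 fold change 0.53, SE 0.13, edgeR adjusted p = 0.00313). Of the mitochondrial amidotransferase genes 2 of 3 were higher, Gatb (0.54) and Qrsl1 (0.37). Of the synthetase-like and editing genes 4 of 5 were higher, led by Aarsd1, which codes for a protein that clears wrong amino acids from the tRNA for alanine (0.98, SE 0.12, edgeR adjusted p = 1.20e-05), and Dtd1, a deacylase for D-amino acids on tRNA (0.81). Of 9 mitochondrial translation genes 7 were higher and 0 lower, among them the elongation factors Tufm (0.997), Tsfm (0.95) and Gfm1 (0.82). Amino acid response genes were mixed: 11 of 29 tested were higher and 7 lower (median 0.10), with Asns, the asparagine synthetase, at 1.01 and the cystine transporter Slc7a11 at −2.48, while Atf4 itself did not pass (0.20, edgeR adjusted p = 0.149). No gene of these 5 lists passed in any treatment comparison, as in all genes. For cocaine over saline the list medians were 0.46 for the scaffolds, 0.04 for the amidotransferase, 0.27 for synthetase-like genes, 0.28 for amino acid response genes and 0.20 for mitochondrial translation, beside 0.03 for all genes. By summed level, cocaine replicate 1 was the highest IP library for each of these lists. The scaffolds were at 259, 147 and 143 CPM in cocaine IP libraries 1, 2 and 3, against 134, 143 and 119 CPM in saline. Synthetase-like genes were at 471, 213 and 245 CPM, against 299, 204 and 209 CPM. The part of cocaine replicate 1 in these medians was not tested.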

How the data were processed

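The submitters' processing notes name STAR 2.0.0e, HTSeq and the mm10 build; annotation, strand setting and HTSeq version are not stated there. The deposited values are raw counts per gene symbol, 1 file per library (11 libraries, 32531 genes). Reads aligned to several places, outside genes or over several genes stand as special entries, 47.5% to 55.1% of all entries, and enter neither library sizes nor tests; this lowers genes with near-identical copies and overlapping genes. Counts hold no molecular identifiers and include PCR copies.

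A single model over the 9 IP libraries was fitted with edgeR 4.0.16 (under R 4.3.3; TMM scaling, filterByExpr, robust quasi-likelihood) with group means for the treatments, and with library number and group for number 1 over numbers 2 and 3; Benjamini-Hochberg adjustment ran over all 16417 genes, at a threshold of 0.05. SE is the size of the log2 fold change over the root of F. Levels are CPM scaled over all 11 libraries, per kb of the longest principal coding transcript (GENCODE M21). Fraction ratios used TMM over 4 libraries, a prior count of 2 and a mean of at least 1 CPM; within-number ratios used CPM plus 0.5. The fits recovered large known changes when tested on simulated data. The simulated treatment data held no library-number difference, so they do not show what changes the treatment comparisons could miss. DESeq2 1.42.0, limma 3.58.1 and other settings were alternatives.

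Same-numbered libraries deviated from their group means together (r = 0.38 to 0.79 over 9 pairs), and so did numbers 2 and 3 of different groups (0.37 to 0.62); the labels do not say what a number stands for. The fit with number as a block was therefore run beside the main comparisons.

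Named genes were every member once, with values in every library for the 3 with the largest change (mean of at least 5 CPM) in cocaine and in yoked over saline, the 4 highest and 4 lowest passing members for number, the 2 highest and 2 lowest per fraction, the 3 highest and the lowest per kb of each class, Lars2, Gars and Kars. Some items are in the counts and medians but are not reported here singly. The members and lists were chosen with earlier results of these data known. At these depths the spread between libraries, not counting error, sets the precision.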

Additional observations from a re-analysis of the deposited data

Results flagged for a closer look

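Ears2 and Tars2 are listed because libraries numbered 1 stood on opposite sides of numbers 2 and 3 in different groups. For Ears2 the log2 fold change of number 1 was −0.40 in cocaine and −0.14 in yoked IP libraries, against 0.23 in saline IP libraries; the difference of cocaine minus saline was −0.63 (SE 0.33, edgeR adjusted p = 0.347). For Tars2 it was 1.02 in cocaine and −0.038 in yoked IP libraries, against 0.28 in saline IP libraries; the difference of cocaine minus yoked was 1.06 (SE 0.35, edgeR adjusted p = 0.0927). Neither difference passed the test over all genes. Number 1 is a single library in each group, so the spread comes from numbers 2 and 3 and the test has few degrees of freedom. Groups of 3 libraries were not tested for single libraries far from the others.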

How the results depend on the processing

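The replicate block was run for the 3 treatment comparisons only and left the count of members that passed at 0 in each. At an unadjusted p under 0.05 in edgeR, members went from 0 to 7 for cocaine over saline, beside 12.3% of all genes. They went from 0 to 1 for yoked over saline, beside 3%, and from 0 to 4 for cocaine over yoked, beside 18.3%. The count of members that passed after adjustment was also 0 with DESeq2 size factors, DESeq2's Wald test, no filter on low counts, Rn45s left out and with each library or all those numbered 1 left out. For number 1 over numbers 2 and 3 the count was 32, beside 9083 of all genes. Over all alternatives it was 27 to 34, beside 7837 to 9391 of all genes. Treatment medians moved by more than the spread between library numbers mainly when single libraries were left out: for cocaine over saline the cytosolic median ran from 0.012 to 0.34 and the mitochondrial from −0.055 to 0.33, for yoked over saline from −0.21 to 0.19 and −0.15 to 0.17, and for cocaine over yoked from −0.0052 to 0.39 and −0.084 to 0.30. Without all libraries numbered 1 the mitochondrial medians were 0.056 for cocaine over saline and 0.025 for cocaine over yoked. The count of members at least 2-fold over the unbound library was 1 to 3 with 1 library left out, since fewer then have to pass. The count over all genes rose in each case as well, from 54 of 13527 to at most 239 of 13483. The cytosolic over mitochondrial sum, a median of 0.49 over IP libraries, became 7.87 without Lars2, since that gene holds most of the sum, and 0.66 as sums per kb. Signs changed for Ears2 in the number comparison (−0.26 to 0.058 with 1 library left out, above 0 without cocaine replicate 1), Cars2 in cocaine over saline (−0.11 to 0.54, below 0 without cocaine replicate 1) and Tars in yoked over saline (−0.67 to 0.052, above 0 without saline replicate 1); the cause was not tested. Calls of Fars2, Lars2 and Sars2 in the number comparison were lost in 9, 5 and 4 alternatives. Levels of the lowest members, such as Aars2 with 53 counts in the unbound library, carry the most counting error. Each fraction other than IP has a single library.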
